A study of Mus musculus with 54 samples.

Results

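The 9 genes described here encode the cell's receiving side of insulin-like growth factor (IGF) signalling. They comprise the receptors Igf1r, Igf2r and Insr, the receptor substrates Irs1 and Irs2, and the secreted binding proteins Igfbp2, Igfbp3, Igfbp4 and Igfbp5. They were taken by name as 9 of the 55401 genes in the table of counts, and their levels were followed through 48 libraries of mouse embryonic stem cells (mESC). Each of 8 lines was sequenced 3 times as undifferentiated mESC and 3 times after all-trans retinoic acid (ATRA) was given for a short time, with the inhibitors and the cytokine that hold the undifferentiated state (2i and LIF) withdrawn. The lines were the parental line (library names give it as flfl), the Ezh2 fl/∆ heterozygote (het), and heterozygote cells that also expressed EZH2-WT or EZH2 with 1 of the changes A677T, R679C, K634E, K563E or A733T. The WT line and the 5 variant lines therefore all carry the deleted Ezh2 allele of the heterozygote. The labels do not give the vector or promoter of the added EZH2, its species, or whether a line is 1 clone. A677T, R679C, K634E and K563E were treated as the Weaver syndrome variants, and A733T as the growth restriction variant, the last from general knowledge because the labels do not assign it. The comparison of interest was how the variants differ from EZH2-WT in both states.

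IGF1, IGF2 and insulin act through a pair of related receptor tyrosine kinases, encoded by Igf1r and Insr. The activated receptors phosphorylate the adaptors Irs1 and Irs2, which recruit PI3-kinase and so switch on AKT and mTOR, a pathway that supports the growth and survival of embryonic cells. Igf2r is a receptor without kinase activity that carries IGF2 to lysosomes, and the IGF binding proteins hold the growth factors outside the cell and set how much reaches the receptors. EZH2 is the catalytic subunit of Polycomb repressive complex 2, which methylates histone H3 at silenced genes, and Weaver syndrome is an overgrowth disorder.

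The summed count per library ranged from 15361598 to 29614420 before differentiation and from 15612700 to 31338825 after it. Levels are given as CPM (counts per 1e+06 counts of the library), scaled by TMM, as mean ± SD over the 3 libraries of a group. Nothing in the labels says that the replicates are separate cultures, so p-values measure only the spread between these libraries, which may be technical. The Ezh2 row stood at 302 ± 0.871 CPM in parental mESC, 281 ± 4.11 in the heterozygote, 439 ± 22.8 in WT, 488 to 560.0 in the 4 Weaver variants and 360.5 ± 17.6 in A733T. Against parental mESC the heterozygote differed by a log2 fold change of -0.11 (SE 0.068, adjusted p = 0.562), which did not pass the test, and WT stood above the heterozygote by 0.65 (SE 0.068, adjusted p = 2.11e-07). In ATRA the heterozygote differed from the parental line by a log2 difference of -0.23 (SE 0.057, adjusted p = 0.0109) and WT from the heterozygote by 0.60 (SE 0.057, adjusted p = 1.53e-08). The Ezh2 values above were not corrected for GC content, and those of the variants against WT below were. With counts so corrected, WT stood above the heterozygote by a log2 value of 0.666 in mESC and 0.583 in ATRA (edgeR, adjusted p = 9.91e-13 and 1.67e-13). With the same correction A733T stood below WT (edgeR, log2 -0.318, adjusted p = 2.52e-06 in mESC and -0.377, 3.88e-09 in ATRA). The mean of the 4 Weaver variants stood above WT (0.125, 0.00686 and 0.126, 0.00222), though R679C in mESC and K634E in ATRA did not pass alone. The part of the Ezh2 level in the differences of the variants from WT was not tested. All 11 embryonic stem cell markers were above 1 CPM in every group, with a summed level of 6421 to 8580 CPM in mESC against 1921 to 3245 CPM in ATRA. The 8 retinoic acid response genes summed to 15.66 to 32.27 CPM in mESC and to 781.6 to 1136 CPM in ATRA. The 10 fibroblast markers summed to at most 5.327 CPM in mESC and 13.97 CPM in ATRA. The dependence of counts on GC content differed between lines, with a Spearman correlation of library deviation on GC of 0.492 to 0.717 in WT mESC and -0.706 to -0.266 in K634E mESC. Where a correction for GC content ended or added a call of a member between lines, the main cases are given with that gene.

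Per length of exon, Igfbp2 was far the most abundant member and Irs1 and Igfbp5 the least. In WT mESC the levels per kilobase of exon were 228 CPM per kb for Igfbp2, 7.56 for Igf2r, 1.84 for Insr, 1.81 for Irs2, 1.78 for Igf1r, 1.78 for Igfbp3, 1.69 for Igfbp4, 0.118 for Igfbp5 and 0.02195 for Irs1. Igfbp2 made up 96.7% to 99.06% of the summed per-length level of the 4 binding proteins in mESC libraries and 92.08% to 96.04% in ATRA libraries. The share of Igfbp3 went from 0.592% to 2.06% in mESC to 2.08% to 5.78% in ATRA, and that of Igfbp4 from 0.128% to 2.21% to 0.788% to 3.47%. The ligands themselves were scarce: Igf1 had 0 counts in all 3 WT mESC libraries and 0.701 ± 0.181 CPM in WT after ATRA, and Igf2 stood at 0.1203 ± 0.0779 and 0.703 ± 0.254 CPM.

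**Figure D1:**
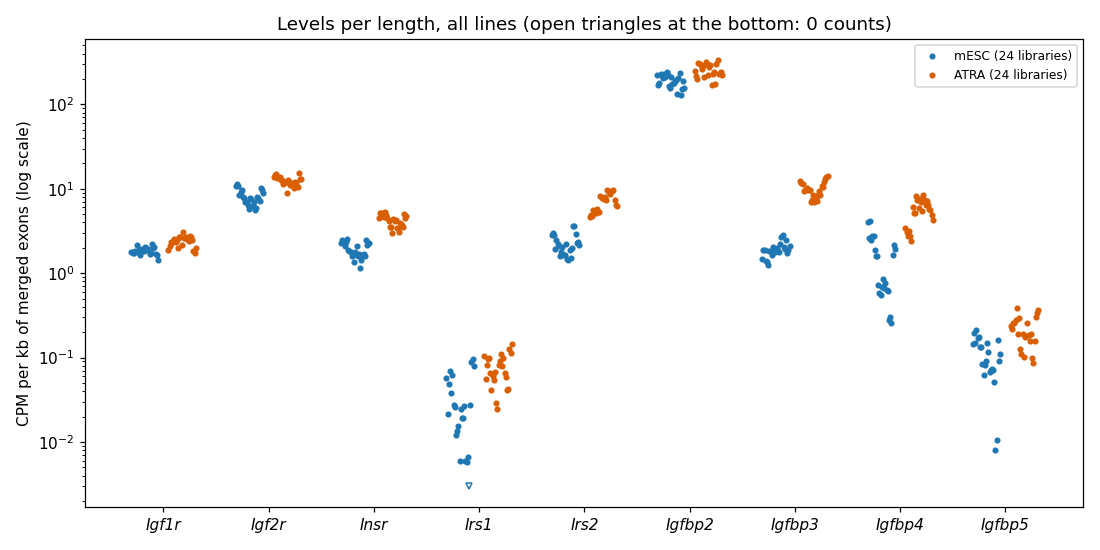
Level of each member in CPM per kilobase of merged exons, on a log axis, with 1 point for each of the 24 mESC and 24 ATRA libraries. Igfbp2 lies above 100 CPM per kb in the libraries of both states, Igf2r comes next in mESC, and Irs1 and Igfbp5 lie below 1.

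Differentiation raised most members in most lines. In WT 8 of 9 members rose and none fell, where 59% of all genes tested changed and 29.8% rose. The counts of members that rose were 5 in parental (28.6% of all genes rose), 7 in the heterozygote (29.4%), 9 in A677T (29.1%), 9 in R679C (30.2%), 8 in K634E (30%), 8 in K563E (30.4%) and 7 in A733T (28.9%), and no member fell in any of these lines. The median log2 fold change of the 9 members was 1.22 in WT, against 0.02 for all genes tested. Insr, Irs2, Igf2r and Igfbp3 rose in all 8 lines, whereas Igfbp4 rose in WT and the 5 variant lines but not in the parental line or the heterozygote. All 9 members passed the filter on low counts in each of the 3 fits. In bulk RNA a change in the number of cells that express a gene and a change in RNA per cell cannot be told apart.

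**Figure D2:**
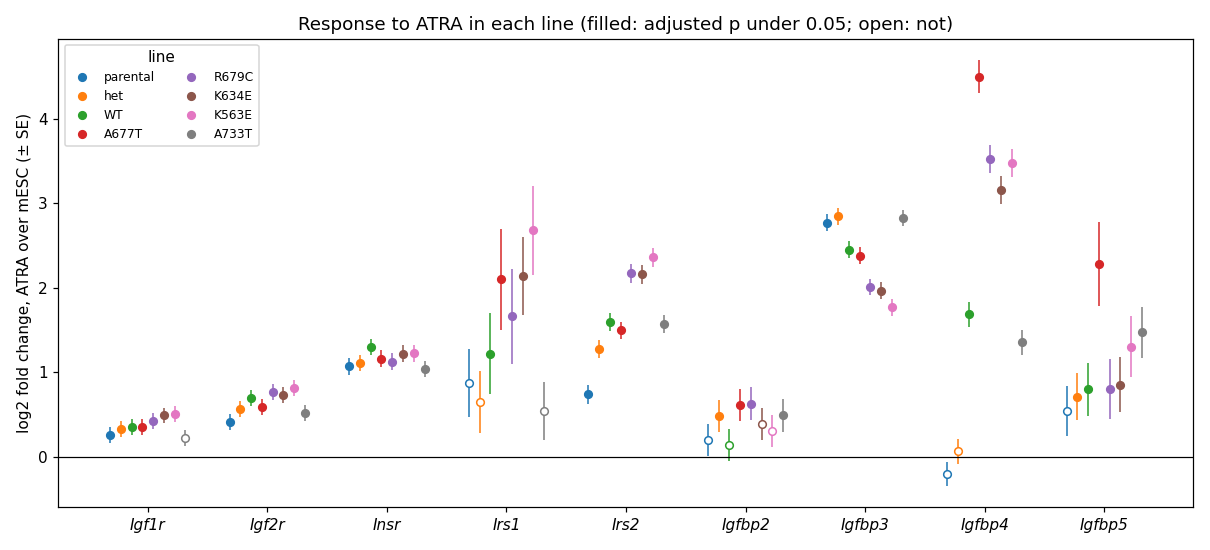
Log2 fold change of ATRA over mESC (± SE) for each member in the 8 lines; filled points passed the test. Igfbp4 spreads most, from -0.21 in the parental line to 4.503 in A677T, and Igfbp3 rose in all 8 lines.

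The receptor kinase Igf1r, on chr7:67952827-68233668 (GRCm38, plus strand), changed little. It stood at 30.2, 31.7 and 27.6 CPM in WT mESC and 39.3, 41.5 and 33.1 CPM after ATRA. The groups did not overlap, and the rise was 0.35 (SE 0.094, adjusted p = 0.00149) on the log2 scale. The smallest rise among the 7 lines that passed was 0.26 in the parental line and the largest 0.50 in K563E, and the change of 0.22 in A733T did not pass (adjusted p = 0.0518). The parental call was lost without ATRA parental replicate 3 (0.178) or mESC parental replicate 3 (0.0648). In ATRA the 4 Weaver variants averaged a log2 difference of 0.21 (SE 0.078, adjusted p = 0.0584) from WT, which did not pass, and 10 of the 21 alternative settings took it past the threshold. Called differences of single variants from WT were 0.26 (SE 0.086, adjusted p = 0.0163) for A677T in mESC, lost without A677T replicate 1 (adjusted p = 0.136), without WT replicate 3 (0.116) and without the filter on low counts (0.0703), and 0.30 (SE 0.097, adjusted p = 0.0375) for K634E in ATRA, lost without any of 4 libraries (up to 0.169). A733T had the lowest mean Igf1r in both states, with 30.4, 29.1 and 33.6 CPM in ATRA. Against WT this was -0.29 (SE 0.099, adjusted p = 0.0398), and leaving out A733T replicate 1 (adjusted p = 0.111) or 2 (0.166) or WT replicate 1 (0.117) or 2 (0.184) ended the call. A733T was below the mean of the 4 Weaver variants by a log2 difference of -0.29 (SE 0.070, adjusted p = 0.00120) in mESC, and in ATRA by a log2 difference of -0.50 (SE 0.081, adjusted p = 9.26e-06).

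Insr, the insulin receptor gene on chr8:3122061-3279617 (minus strand), rose in all 8 lines. In WT it went from 25.97, 25.4 and 24.6 CPM in mESC to 67.9, 61.8 and 57.3 CPM in ATRA. The rise was 1.297 (SE 0.099, adjusted p = 1.04e-15), and over the 8 lines it lay between 1.04 and 1.297. After ATRA the level was lower in Weaver variant lines than in WT. The libraries held 53.6, 50.7 and 47.95 CPM in A677T, 48.5, 47.8 and 41.6 in R679C, 59.7, 57.7 and 58.5 in K634E and 47.2, 47.7 and 42.1 in K563E. The A677T, R679C and K563E libraries all lay below those of WT, while those of K634E overlapped them. On average the 4 were lower than WT by 1.24-fold (log2 fold change -0.31, SE 0.061, adjusted p = 0.000392), and A677T, R679C and K563E passed alone (-0.30, -0.43 and -0.45). Without WT replicate 1 the A677T difference lost its call (adjusted p = 0.0649). A733T ATRA libraries held 68.6, 61.8 and 66.2 CPM, a difference from WT of 0.07 (SE 0.078, adjusted p = 0.587) that did not pass. In mESC, A733T was above WT by 0.36 (SE 0.11, adjusted p = 0.0235), lost without A733T replicate 1 (0.107) or 3 (0.0726) or WT replicate 2 (0.0502) or 3 (0.0974). Mean levels in mESC were 31.97 CPM in A733T, 31.85 in the heterozygote and 32.45 in the parental line, against 25.34 in WT. K563E was below WT by a log2 difference of -0.34 (SE 0.11, adjusted p = 0.0223), lost without K563E replicate 2 (0.176) or WT replicate 1 (0.0605) or 2 (0.0556). With the GC correction the Weaver mean (-0.255, adjusted p = 0.0154) and R679C (-0.294, adjusted p = 0.0428) also passed as lower than WT in mESC. Insr overlaps an antisense gene model, and the strand setting of the counting is not given in the sources used here, so reads of the pair cannot be told apart; the same holds for Irs1 and Irs2.

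Igf2r, the clearance receptor for IGF2 on chr17:12682406-12769664 (minus strand), is an imprinted gene whose antisense partner Airn starts inside it. Airn stood at 0 to 0.394 CPM in group means and was not tested because of its low counts. Igf2r was highest in the parental line in both states, at 99.1, 106 and 99.4 CPM in mESC. The heterozygote followed with 78.97, 85.8 and 89.2 CPM and A733T with 96.1, 90.4 and 83.3 CPM, and WT was lower at 74.02, 72.5 and 64.6 CPM. A733T libraries lay above all WT libraries, with a log2 difference of 0.38 (SE 0.089, adjusted p = 0.00392) that kept its call under the 12 alternatives run. The 4 Weaver variants averaged -0.11 (SE 0.071, adjusted p = 0.195) against WT, which did not pass. K563E was called lower (-0.25, adjusted p = 0.0315), but the call was lost under the GC correction (adjusted p = 0.0847) and without K563E replicate 2 (0.145) or 3 (0.107) or WT replicate 1 (0.109) or 2 (0.101). With ATRA Igf2r rose in all 8 lines, by 0.41 in the parental line to 0.81 in K563E on the log2 scale.

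Of the receptor substrates, Irs2 (chr8:10984681-11008458, minus strand) was the more abundant per length. Its promoter is shown because the gene rose in all 8 lines and stood above WT in all 5 variant lines after ATRA. It is the 250 bases before the RefSeq start (chr8:11008930-11009179, GRCm38.p6, minus strand), with CpG sites in capitals.
Irs2: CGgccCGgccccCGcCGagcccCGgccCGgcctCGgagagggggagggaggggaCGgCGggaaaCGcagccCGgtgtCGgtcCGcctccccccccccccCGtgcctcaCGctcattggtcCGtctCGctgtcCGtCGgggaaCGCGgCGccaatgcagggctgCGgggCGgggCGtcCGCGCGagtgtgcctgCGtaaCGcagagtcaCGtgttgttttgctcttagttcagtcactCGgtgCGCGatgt
This window holds 34 CpG sites, more than 96.5% of the 32851 RefSeq promoter windows of the same length, whose median is 6. It has 1 GC box (GGGCGG, either strand; in 32.74% of all windows) and 1 E-box (CACGTG; in 6.02%).

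In mESC Irs2 stood at 13.3, 9.96 and 11.2 CPM in WT and at 23.2, 22.6 and 18.3 CPM in A677T. The A677T libraries were all above those of WT, R679C, K634E and K563E, and A677T exceeded WT by 1.92-fold (log2 fold change 0.94, SE 0.14, adjusted p = 7.44e-06). The A677T range overlapped that of the parental line, which held 17.7, 18.67 and 17.67 CPM. The other 3 Weaver variants differed from WT by a log2 value between -0.06 and 0.01, none of which passed. Averaged over the 4, the difference from WT was 0.22 (SE 0.12, adjusted p = 0.119), and it passed under the GC correction (0.465, adjusted p = 7e-04), as did A733T (0.417, adjusted p = 0.0172).

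After ATRA all 12 Weaver variant libraries lay above the 3 of WT for Irs2, the 1 member of 9 without overlap in that comparison, as for 7.32% of all genes tested. WT libraries held 36.3, 33.9 and 33.7 CPM, A677T 60.04, 59.6 and 61.5, R679C 52.1, 49.8 and 49.8, K634E 47.3, 50.9 and 46.2 and K563E 60.3, 58.4 and 55.3. The mean of the 4 was 1.56-fold above WT (log2 fold change 0.64, SE 0.055, adjusted p = 1.20e-09), and each variant passed alone (0.80, 0.55, 0.48 and 0.74). A733T libraries held 46.6, 40.5 and 39.9 CPM, above WT by 0.29 (SE 0.067, adjusted p = 0.00340) and below the mean of the Weaver variants by a log2 difference of -0.36 (SE 0.054, adjusted p = 3.32e-06). The parental and heterozygote lines were at the low end, with 29.4, 30.5 and 30.2 and 35.4, 33.1 and 32.3 CPM. The rise with ATRA was smallest in the parental line (0.74), 1.59 in WT and largest in K563E (2.36). Averaged over the 4 Weaver variants, the rise exceeded that of WT by 0.45 (SE 0.12, adjusted p = 0.0162) on the log2 scale. The A677T rise was 1.495, no larger than that of WT, and those of R679C and K634E were 2.17 and 2.16. The call on the mean ended under the GC correction (0.162) and without ATRA WT replicate 3 (0.0505), mESC WT replicate 1 (0.147) or mESC WT replicate 3 (0.0698).

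Irs1 (chr1:82233101-82291416, minus strand), the second substrate, was a low-count gene with its highest level in A733T. In mESC WT libraries had 5, 5 and 2 counts and A733T libraries 14, 18 and 14. These were 0.253, 0.238 and 0.111 CPM in WT and 0.805, 0.888 and 0.721 CPM in A733T. The mESC A733T libraries lay above those of the other 7 lines, and the difference from WT was 3.92-fold (log2 fold change 1.97, SE 0.51, adjusted p = 0.00686). After ATRA A733T held 1.15, 1.03 and 1.34 CPM against 0.382, 0.554 and 0.492 in WT, a log2 difference of 1.27 (SE 0.33, adjusted p = 0.00805), and again no library of another line reached the A733T range. The mESC A733T libraries also had more counts of endoderm markers than WT, summed to 12.31 to 13.07 CPM against 5.114 to 6.807, with 3 of 12 above 1 CPM in each line and Afp and Ttr at 0 in both. Fibroblast markers summed to 3.864 to 5.327 CPM against 1.383 to 1.907, with 2 and 1 of 10 above 1 CPM and Postn, Lum and Fap at 0 in both. Neural progenitor markers summed to 25.43 to 29 CPM against 16.83 to 18.98, with 4 and 2 of 8 above 1 CPM. Trophoblast markers were lower in A733T mESC, at 72.44 to 78.32 CPM against 86.96 to 92.1 in WT, with 5 and 3 of 8 above 1 CPM. In ATRA these markers summed to 58.41 to 65.21 CPM in A733T against 29.99 to 34.5 in WT, with 7 and 6 of 8 above 1 CPM. Their part in the A733T differences was not tested. Irs1 rose with ATRA in WT and the 4 Weaver variants by 1.22 to 2.68. In WT that call rested on 12 counts in mESC and 32 in ATRA, and it was lost without mESC WT replicate 3 (adjusted p = 0.113) or ATRA WT replicate 2 (0.0895) or 3 (0.0512) and with the replicate block (0.0756). The changes of 0.87 in the parental line, 0.64 in the heterozygote and 0.54 in A733T did not pass.

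**Figure D3:**
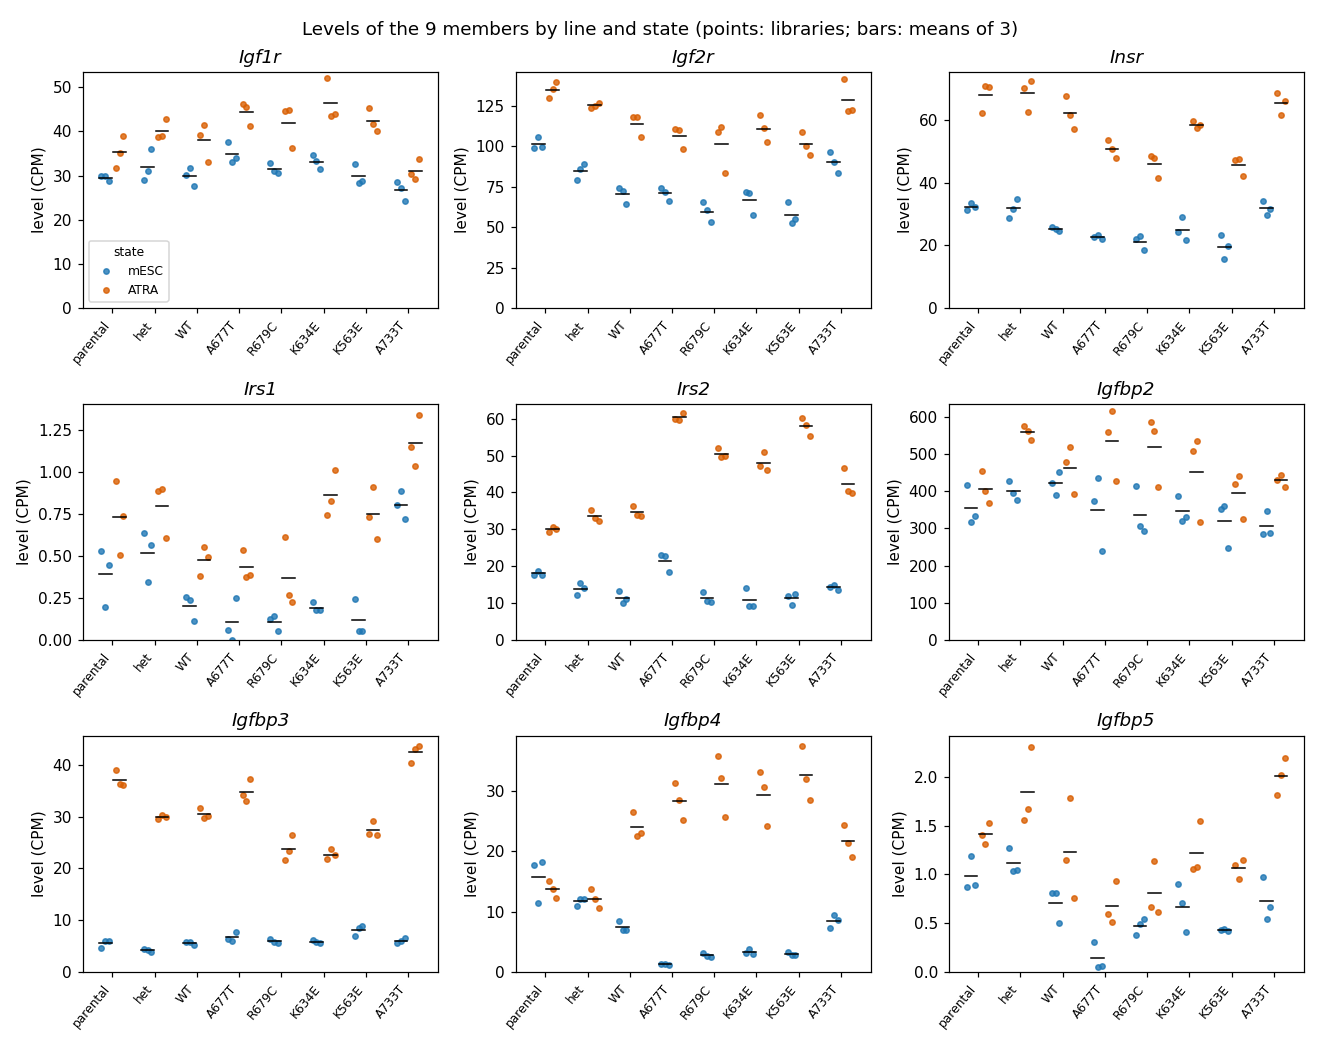
Level in CPM (linear axes from 0) of each member in each library by line; blue points are mESC, orange points ATRA, and black bars the means of 3 libraries. Igfbp4 mESC libraries of A677T, R679C, K634E and K563E lie below all WT mESC libraries, Irs2 ATRA libraries of these lines lie above all WT ATRA libraries, and Irs1 is highest in A733T.

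Igfbp2 (chr1:72824503-72852474, plus strand), the major binding protein of these cells, varied widely between libraries of 1 group. In WT mESC it stood at 422, 390.2 and 451 CPM and in A677T at 374, 437 and 239 CPM, and after ATRA at 478, 520.5 and 392 and 560.5, 617 and 427 CPM. Igfbp2 ranges of neighbouring lines overlapped throughout the order of levels in both states. It did not pass in any comparison between lines. Without the filter on low counts several Igfbp2 differences passed, such as the Weaver mean in mESC (-0.291, adjusted p = 5.32e-06) and A733T in mESC (-0.457, adjusted p = 6.15e-08). It has the highest GC content of the members, 62.13% of exon bases, and some of its differences changed sign under the GC correction. The difference of A677T from WT in mESC, -0.23 as counted, became 0.219 (adjusted p = 0.0205), and that of K634E in ATRA, -0.03, became 0.217 (adjusted p = 0.0359). With the correction A677T in ATRA passed as higher than WT (0.349, adjusted p = 0.00039) and A733T in mESC as lower (-0.276, adjusted p = 0.00674), and in ATRA the heterozygote passed as higher than the parental line (0.492, adjusted p = 1.35e-05) and WT as lower than the heterozygote (-0.217, adjusted p = 0.0228). Igfbp2 rose with ATRA in the heterozygote, A677T, R679C and A733T (0.48, 0.61, 0.63 and 0.49), and in A677T the call was lost without mESC A677T replicate 3 (adjusted p = 0.121), the library of its group with the lowest value. In the heterozygote it was lost without any of 4 libraries (adjusted p up to 0.105), and in A733T without any of 5 (up to 0.103).

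Igfbp5 (chr1:72857932-72874884, minus strand) lies tail to tail with Igfbp2 across a gap of 5457 bases and was a low-count gene. In mESC WT libraries had 16, 17 and 9 counts and A677T libraries 5, 1 and 1. In CPM these were 0.8101, 0.8105 and 0.498 and 0.306, 0.0483 and 0.06304. The A677T libraries lay below all others in mESC, and A677T was lower than WT by 5.01-fold (log2 fold change -2.33, SE 0.50, adjusted p = 0.000534), a call that held under the 12 alternatives. The mean of the 4 Weaver variants was lower by a log2 difference of -0.90 (SE 0.31, adjusted p = 0.0194), and the call was lost without WT replicate 1 (0.0956) or 2 (0.104). After ATRA A733T had the highest mean at 1.81, 2.02 and 2.197 CPM, against 1.15, 1.78 and 0.761 in WT. That difference, 0.69 (SE 0.27, adjusted p = 0.0796), did not pass, while A733T exceeded the mean of the Weaver variants by 1.12 (SE 0.22, adjusted p = 0.000110). In ATRA A677T was called lower than WT with the GC correction (-0.875, adjusted p = 0.0402) or the replicate block (-0.891, adjusted p = 0.0418). Igfbp5 rose with ATRA in 7 lines, by 0.71 in the heterozygote to 2.28 in A677T. The calls in WT, the heterozygote, R679C and K634E did not hold without the filter on low counts or with the replicate block, where the adjusted p in WT was 0.0825 and 0.252.

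Igfbp3 (chr11:7206086-7213923, minus strand) showed the largest rise with ATRA of the 9 members in the parental line, the heterozygote, WT and A733T. The 250 bases before its RefSeq start (chr11:7213924-7214173, GRCm38.p6, minus strand) are shown for comparison with Igfbp4, the other binding protein with a large response, with CpG sites in capitals.
Igfbp3: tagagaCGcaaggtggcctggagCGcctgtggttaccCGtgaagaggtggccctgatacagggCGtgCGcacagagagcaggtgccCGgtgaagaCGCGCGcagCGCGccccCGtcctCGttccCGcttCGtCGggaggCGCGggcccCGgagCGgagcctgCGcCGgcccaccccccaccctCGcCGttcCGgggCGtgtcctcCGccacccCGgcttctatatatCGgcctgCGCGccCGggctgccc
The window holds 32 CpG sites, more than 95.4% of promoter windows, and neither TATAAA nor the GC box, the E-box or the retinoic acid half-site AGGTCA (in 14.02% of all windows, either strand).

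In WT Igfbp3 went from 5.77, 5.77 and 5.15 CPM to 31.7, 29.9 and 30.1 CPM with ATRA, a rise of 5.47-fold (log2 fold change 2.45, SE 0.099, adjusted p = 8.56e-26). Over the 8 lines the log2 rise ran from 1.77 in K563E to 2.85 in the heterozygote. A733T reached the highest level, 40.5, 43.2 and 43.8 CPM, above every other ATRA library. It exceeded WT by 1.39-fold (log2 fold change 0.48, SE 0.075, adjusted p = 5.40e-05). R679C and K634E ended lowest, with 21.6, 23.3 and 26.5 and 21.8, 23.7 and 22.6 CPM, all below WT. Their log2 differences from WT were -0.35 (SE 0.077, adjusted p = 0.00256) and -0.42 (SE 0.078, adjusted p = 0.000510), whereas A677T, at 34.2, 33.1 and 37.4 CPM, was 0.19 (SE 0.075, adjusted p = 0.0801) from WT, which did not pass as counted and passed with the GC correction (0.231, adjusted p = 0.0233). The mean of the 4, -0.18 (SE 0.060, adjusted p = 0.0285), lost its call under the GC correction (adjusted p = 0.106), without the filter on low counts (0.121) and without WT replicate 1 (0.151), 2 (0.0715) or 3 (0.0654).

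Averaged over the 4 Weaver variants, the Igfbp3 rise was smaller than in WT by a log2 difference of -0.42 (SE 0.11, adjusted p = 0.0118). The A677T rise, 2.38, was near the 2.45 of WT. Those of R679C, K634E and K563E were 2.01, 1.96 and 1.77. The test of the A733T rise against the mean of the Weaver variants, added after the values were seen, gave 0.80 (SE 0.11, adjusted p = 2.80e-07). In mESC the Weaver mean was above WT by 0.27 (adjusted p = 0.0433), a call that 15 of 21 alternatives ended, and K563E alone was above WT by 0.57 (SE 0.13, adjusted p = 0.00165). The heterozygote was below the parental line in ATRA by a log2 difference of -0.32 (SE 0.074, adjusted p = 0.00701), and without parental replicate 1 the adjusted p was 0.0599. Markers of primitive and visceral endoderm, cells known to arise in ATRA-treated embryonic stem cells, were read in the same libraries. The 12 markers summed to 197.5 to 200.5 CPM in WT, 189.6 to 205 in A733T, 92.62 to 120.2 in the 4 Weaver variants, 128 to 141.7 in the parental line and 123 to 134.5 in the heterozygote, with 8 or 9 markers above 1 CPM in each group. Their part in the levels of the 9 genes was not tested.

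Igfbp4 (chr11:99041244-99054392, plus strand), a binding protein mostly described as a restraint on IGF action, had the widest range of group means of the 9 members in mESC. It was lower in the 4 Weaver variants than in WT before differentiation and no longer lower after it. The 250 bases before its RefSeq start (chr11:99040994-99041243, GRCm38.p6, plus strand) are shown for that reason. Capitals mark CpG sites and a TATA box.
Igfbp4: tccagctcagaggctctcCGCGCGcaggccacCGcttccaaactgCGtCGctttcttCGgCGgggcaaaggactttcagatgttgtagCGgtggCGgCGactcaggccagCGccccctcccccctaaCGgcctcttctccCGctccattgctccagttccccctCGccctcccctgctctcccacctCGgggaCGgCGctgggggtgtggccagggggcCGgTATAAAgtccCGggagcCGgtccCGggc
The TATA box (TATAAA, either strand; in 12.37% of windows) begins 28 bases before the start, and Igfbp4 is the 1 member of the 8 found in the RefSeq table that has this exact string. Other TATA-like sequences, such as the tatata near the end of the Igfbp3 window, were not searched for. The window holds 22 CpG sites, more than 85.2% of windows, with no GC box and no AGGTCA. The retinoic acid DR5 element, a pair of such half-sites 5 bases apart, was in no member's window and in 0.01% of all windows, and the single half-site was in those of Igf1r and Igf2r.

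In mESC the libraries fell into 4 ranges of Igfbp4. The parental line held 17.8, 11.4 and 18.2 CPM and the heterozygote 10.99, 12.2 and 12.01, and these ranges overlapped. WT and A733T came next with 8.405, 7.01 and 6.97 and 7.25, 9.42 and 8.603 CPM, overlapping each other and below both lines without added EZH2. K634E held 3.03, 3.82 and 2.92 CPM, K563E 3.33, 2.77 and 2.69 and R679C 3.18, 2.59 and 2.44, below every WT library. A677T was lowest of all at 1.23, 1.35 and 1.14 CPM, from 20, 28 and 18 counts. The mean of the 4 Weaver variants was 3.05-fold below WT (log2 fold change -1.61, SE 0.13, adjusted p = 1.95e-10), and -1.415 after the GC correction. The single differences were -2.54 (SE 0.20, adjusted p = 1.84e-10) for A677T, -1.42 (SE 0.17, adjusted p = 8.12e-07) for R679C, -1.15 (SE 0.17, adjusted p = 1.75e-05) for K634E and -1.32 (SE 0.17, adjusted p = 1.47e-06) for K563E, each kept under the 12 alternatives run for it. A733T differed from WT by 0.20 (SE 0.15, adjusted p = 0.365), which did not pass, and exceeded the mean of the Weaver variants by 1.81 (SE 0.12, adjusted p = 2.48e-12). Igfbp4 was the 1 member of 9 for which the libraries of WT and of the 4 variants did not overlap in mESC, as for 22.6% of all genes tested. Marker lists moved with the lines in the same libraries. In the 4 Weaver variants against WT, embryonic stem cell markers summed to 6421 to 7422 against 7980 to 8162 CPM (11 of 11 above 1 CPM in each group), the 8 trophoblast markers to 107.5 to 132.6 against 86.96 to 92.1 CPM (3 or 4 above 1 CPM, Elf5 at 0 in the Weaver variants) and the 8 neural progenitor markers to 8.888 to 15.14 against 16.83 to 18.98 CPM (2 or 3 above 1 CPM, Neurog2 at 0 in both). Their part in the Igfbp4 difference was not tested.

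With ATRA the order of the lines reversed in part. The parental line held 15.1, 13.7 and 12.2 CPM and the heterozygote 13.8, 12.1 and 10.6, so neither had moved beyond its spread. Their log2 changes were -0.21 (SE 0.14, adjusted p = 0.215) and 0.06 (SE 0.14, adjusted p = 0.744). WT rose to 26.5, 22.6 and 23.1 CPM and A733T to 24.4, 21.5 and 19.1, above all libraries of the lines without added EZH2. The Weaver variants rose from their low starting levels to 31.3, 28.6 and 25.2 CPM in A677T, 35.9, 32.3 and 25.8 in R679C, 33.2, 30.7 and 24.2 in K634E and 37.5, 32.1 and 28.6 in K563E. The rise was 22.7-fold in A677T and 3.22-fold in WT. On the log2 scale it was 4.503 (SE 0.20) in A677T, 3.53 in R679C, 3.16 in K634E, 3.48 in K563E, 1.69 in WT and 1.36 in A733T. In the parental line the change passed, as a fall, without mESC parental replicate 2 (adjusted p = 0.0159), the lowest of its mESC libraries. The 8 mesoderm markers in ATRA summed to 13.53 to 16.74 CPM in the parental line, 10.39 to 14.89 in the heterozygote, 26.68 to 33.08 in WT, 24.07 to 25.71 in A733T and 33.8 to 53.28 in the Weaver variants, with 2 to 5 above 1 CPM in each group. The sums were lowest in the parental line and heterozygote and highest in the Weaver variants, as for mean Igfbp4. Among the Weaver variants the sums of A677T (42.83 to 53.28 CPM) and K563E (48.02 to 50.98 CPM) overlapped. These lines had the lowest and the highest mean Igfbp4 of the Weaver variants. Their part in the Igfbp4 level was not tested.

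The Igfbp4 response itself differed between lines. The rise of the 4 Weaver variants exceeded that of WT by a log2 value of 1.98 (SE 0.18, adjusted p = 5.40e-11). The rise in WT exceeded that in the heterozygote by 1.63 (SE 0.21, adjusted p = 1.51e-06), and the rise in A733T was below that of the Weaver variants by a log2 difference of -2.31 (SE 0.18, adjusted p = 4.41e-14); both of these tests were added after the values were seen. The A733T rise differed from that of WT by a log2 difference of -0.33 (SE 0.21, adjusted p = 0.462), which did not pass. After ATRA the Weaver mean was above WT by 0.34 (SE 0.10, adjusted p = 0.0204), a call that ended without ATRA WT replicate 2 (adjusted p = 0.141) or 3 (0.0902). K563E passed alone (0.44, adjusted p = 0.0158), and lost its call without K563E replicate 1 (0.106) or WT replicate 2 (0.083) or 3 (0.0514). With the GC correction A677T (0.31, adjusted p = 0.0205), R679C (0.369, adjusted p = 0.00857) and K634E (0.436, adjusted p = 0.00293) passed in ATRA too, and the heterozygote passed as lower than the parental line in mESC (-0.426, adjusted p = 0.0343). WT itself stood below the heterozygote in mESC by a log2 difference of -0.65 (SE 0.14, adjusted p = 0.00318) and above it in ATRA by 0.97 (SE 0.14, adjusted p = 1.18e-05).

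**Figure D4:**
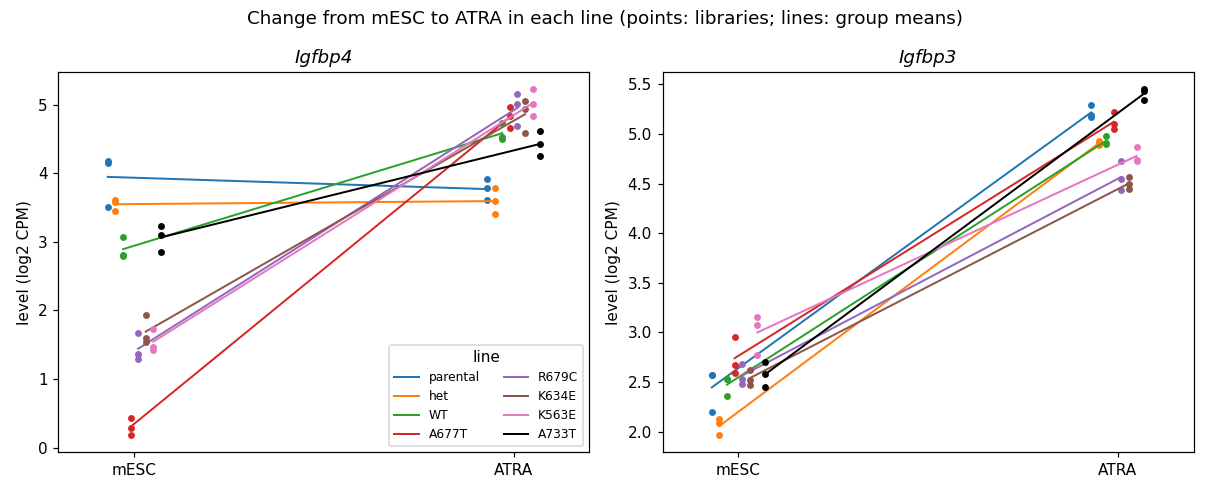
Level in log2 CPM of Igfbp4 (left) and Igfbp3 (right) in mESC and ATRA, with 1 line per cell line through the means of log2 CPM and 1 point per library. The Igfbp4 lines cross, with the parental line and heterozygote flat and A677T rising most, whereas Igfbp3 rises in all 8 lines.

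Of the 14 annotated genes within 200 kb of Igfbp4, 7 were tested in mESC, and 1 was higher and 2 lower in the Weaver mean than in WT, where 44.4% of all genes were called. The nearest of them, Top2a, the replication-linked topoisomerase gene 17.1 kb away, differed by 0.06 on the log2 scale (adjusted p = 0.516). Rara, which encodes a retinoic acid receptor 66.3 kb away, was lower by a log2 difference of -0.18 (SE 0.065, adjusted p = 0.0268), and Rapgefl1, 188 kb away, by a log2 difference of -0.94 (adjusted p = 4.45e-05). After ATRA 1 of 8, Cdc6, was higher and 0 lower, where 8.43% of all genes were higher and 12.1% lower. For the response to ATRA of the Weaver mean against that of WT, 3 of 8 were higher and 0 lower. Over all genes these shares were 4.54% and 2.53%. The 3 were Rapgefl1 (log2 0.72, edgeR adjusted p = 0.0343), Rara (0.34, 0.0178) and Cdc6 (0.18, 0.0313). These neighbours were chosen for mention after their values were seen.

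The calls were also counted over the members. In mESC the average over the 4 variants had 1 member higher and 2 lower, 3 of 9, where 44.4% of all genes were called, 21.4% higher and 22.9% lower. A677T had 2 higher and 2 lower, where 44.6% of all genes were called (22.4% higher, 22.2% lower). R679C had 0 higher and 1 lower, where 23.7% of all genes were called (11.1% higher, 12.6% lower). K634E had 0 higher and 1 lower, where 29.3% of all genes were called (14.5% higher, 14.8% lower). K563E had 1 higher and 3 lower, where 34.5% of all genes were called (16.8% higher, 17.8% lower). A733T had 3 higher and 0 lower, where 19.3% of all genes were called (10.7% higher, 8.64% lower). In ATRA the average had 2 higher and 2 lower, where 20.5% of all genes were called, 8.43% higher and 12.1% lower. A677T had 1 higher and 1 lower, where 19.4% of all genes were called (8.33% higher, 11.1% lower). R679C had 1 higher and 2 lower, where 10.3% of all genes were called (4.87% higher, 5.45% lower). K634E had 2 higher and 1 lower, where 15% of all genes were called (7.38% higher, 7.65% lower). K563E had 2 higher and 1 lower, where 20.5% of all genes were called (8.53% higher, 11.9% lower). A733T had 3 higher and 1 lower, where 17.7% of all genes were called (10.4% higher, 7.33% lower). In mESC the share of members called was near or below that of all genes for the average, A677T, R679C and K634E, and above it for K563E (4 of 9) and A733T (3 of 9). In ATRA it was near that of all genes for A677T (2 of 9) and above it for the average, R679C, K634E, K563E and A733T. Shares over 9 genes rest on few calls, several of which were lost without 1 library, so no excess is read from them. All of these comparisons share the WT libraries, so their values are not independent of each other. A733T against the mean of the Weaver variants, which does not use WT, had 5 members higher and 1 lower in mESC (50.3% of all genes called, 26.8% higher and 23.5% lower) and 5 higher and 3 lower in ATRA (48.5%, 27% and 21.5%). The median log2 difference of the 9 members was 0.49 and 0.29 in these comparisons, against 0.00 and 0.02 over all genes. The response to ATRA differed from WT for 3 of 9 members in the Weaver mean (7.07% of all genes) and for 0 in A733T (3.17%; 0 by DESeq2, and Igfbp3 at an unadjusted p under 0.05). It differed between A733T and the Weaver mean for 4 (15.7%) and between WT and the heterozygote for 1 (2.25%).

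**Figure D5:**
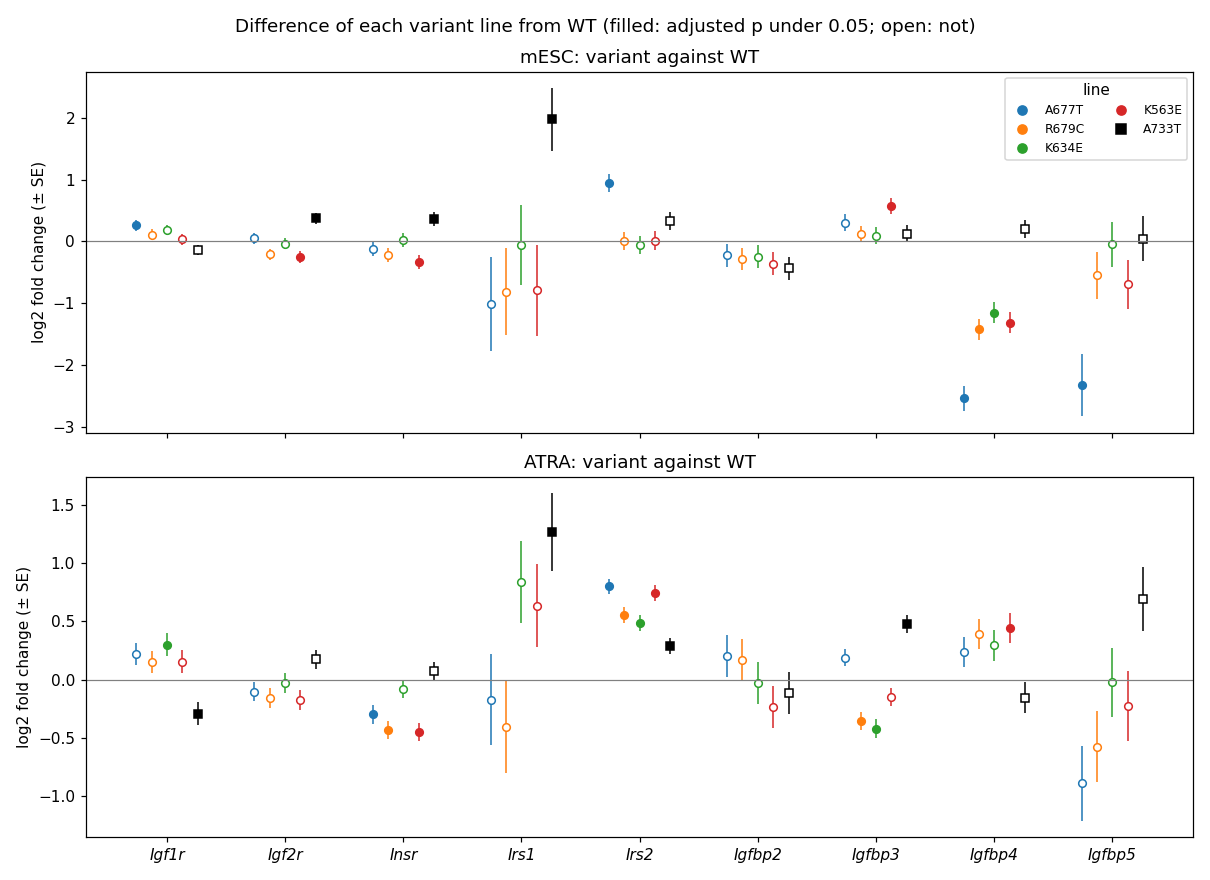
Log2 fold change (± SE) of each variant line against WT for the 9 members, in mESC (top) and ATRA (bottom); filled symbols passed the test and squares are A733T. In mESC Igfbp4 is below 0 in A677T, R679C, K634E and K563E and near 0 in A733T, and in ATRA Irs2 is above 0 in all 5 lines.

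Lines without a variant also differed. WT was lower than the heterozygote in mESC for Igfbp4, Igf2r and Insr, 3 of 9, where 12.1% of all genes were called (5.22% higher and 6.84% lower), and higher in ATRA for Igfbp4, 1 of 9 (16.4%, 7.64% and 8.74%). The Igf2r and Insr calls (-0.27 and -0.33, adjusted p = 0.0487 and 0.0475) were lost with RLE size factors (0.0504 and 0.0502) and without heterozygote replicate 2 or 3 or any of the 3 WT libraries. The heterozygote differed from the parental line in 0 members in mESC (3.44% of all genes, 1.17% higher and 2.26% lower; 0 by DESeq2, and 4 at an unadjusted p under 0.05 in edgeR) and in Igfbp3 in ATRA (6.25%, 2.2% and 4.05%).

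Other genes of the pathway were read from lists of its parts. Among 23 tested receptors and adaptors beside the members, 4 were higher and 9 lower in the Weaver mean than in WT in mESC, where 21.4% of all genes were higher and 22.9% lower. With the GC correction 7 were higher and 6 lower. The lower genes included Grb10, an imprinted adaptor that restrains insulin and IGF receptors, at 92.1 CPM in WT, 31.9 to 62.05 in the Weaver variants and 222 ± 5.47 in A733T. The log2 differences from WT were -0.92 (SE 0.051, adjusted p = 1.89e-13) for the Weaver mean and 1.29 (SE 0.066, adjusted p = 2.10e-13) for A733T. Grb10 rose with ATRA in WT by 1.97 (SE 0.056, adjusted p = 1.56e-31), and A733T was then above WT by 0.85 (SE 0.051, adjusted p = 3.53e-12). With the GC correction the Weaver mean differed from WT by a log2 value of -0.947 in mESC and -0.172 in ATRA (edgeR, adjusted p = 0.000155 in ATRA). In ATRA A677T (-0.697) and R679C (-0.199) were then lower than WT and K634E (0.157) higher. K563E (0.053, adjusted p = 0.408) did not pass. Socs2, a suppressor of cytokine and growth hormone signalling, was higher in the Weaver mean by 0.62 (SE 0.065, adjusted p = 3.20e-08) in mESC and lower in A733T by a log2 difference of -0.34 (SE 0.080, adjusted p = 0.00349). After the GC correction these differences were 0.479 and -0.383.

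Of 9 other tested IGF binding and carrier genes, 0 were higher and 6 lower in the Weaver mean in mESC, where 21.4% of all genes were higher and 22.9% lower. Their median log2 difference was -0.74 against -0.005 over all genes, and 5 were lower under the GC correction, with a median of -0.441. Stc2, whose product blocks the protease that cleaves Igfbp4, stood at 9.501 ± 1.73 CPM in WT and 2.66 to 8.14 in the Weaver variants, and the Weaver mean differed from WT by a log2 difference of -1.26 (SE 0.13, adjusted p = 3.85e-08). Lrp1, an endocytic receptor, was lower by a log2 difference of -1.05 (SE 0.075, adjusted p = 2.94e-11), and Igfals, which holds IGFs in the circulation, by a log2 difference of -0.75 (SE 0.11, adjusted p = 8.82e-06). After the GC correction the differences of Stc2, Lrp1 and Igfals were -1.221, -0.766 and -0.441. In ATRA 1 of 10 was higher, Lrp2 (0.43, adjusted p = 3.08e-05), and 3 were lower, among them Htra1 (-1.34) and Igfals (-0.55). Of all genes 8.43% were higher and 12.1% lower there. With ATRA in WT 7 of 11 rose and 3 fell, with Lrp2 up by 4.91, where 29.8% of all genes rose and 29.2% fell. Of the ligand list 0 of 5 tested were higher and 2 lower in the Weaver mean in mESC (21.4% and 22.9% of all genes), and 1 was lower with the GC correction. Igf2 was higher in A733T, at 1.46 ± 0.737 CPM in mESC against 0.1203 ± 0.0779 in WT. The log2 difference was 3.55 (SE 0.65, adjusted p = 0.000301) in mESC and 1.63 (SE 0.34, adjusted p = 0.00121) in ATRA. Igf1 differed between A733T and WT in ATRA by 0.45 (SE 0.34, adjusted p = 0.404), which did not pass, and Ins1 and Ins2 were too low to test.

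Downstream, 10 of 32 PI3K, AKT and mTOR genes were higher and 7 lower in the Weaver mean in mESC, and 6 and 2 in ATRA, where 44.4% and 20.5% of all genes were called. With the GC correction these counts were 13 and 4 in mESC and 12 and 3 in ATRA. Trib3, an inhibitor of AKT, was lower in both states, by a log2 difference of -0.91 and -0.50 (adjusted p = 7.21e-10 and 0.00375), and Ddit4, an mTOR inhibitor, was lower in mESC by a log2 difference of -0.99 (SE 0.12, adjusted p = 9.28e-07). After the GC correction Trib3 differed by -0.619 and -0.383 and Ddit4 by -0.72. Of 13 tested FOXO factors and targets, which AKT holds in check, 2 were higher and 3 lower in mESC (5 and 5 with the GC correction) and 4 and 3 in ATRA, with Foxo1 higher by 0.50 and 0.32 (adjusted p = 2.97e-06 and 0.00157). Of the 7 genes for IGF2 mRNA binding proteins and Lin28, 2 were higher and 2 lower in mESC (4 and 3 with the GC correction) and 3 and 1 in ATRA. Lin28b was above WT by 0.90 (SE 0.081, adjusted p = 1.96e-09) in mESC and 0.55 (SE 0.080, adjusted p = 1.14e-05) in ATRA, and by 0.611 and 0.46 after the GC correction. Igf2bp3, which binds Igf2 mRNA, was lower in A733T by a log2 difference of -1.26 (SE 0.066, adjusted p = 2.46e-13) in mESC and -1.07 (SE 0.063, adjusted p = 2.94e-12) in ATRA. Of the 5 tested neighbours of Igf2r on chromosome 17, 2 were higher and 1 lower in mESC and 0 and 2 in ATRA; with the GC correction these were 1 and 2 and 0 and 3.

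The genes whose pattern over the 16 group means was most like that of a member were compared by Pearson's r on log2(CPM + 0.5) among 13463 genes. These means share libraries and the large contrast between the states, so r is a description. For Igfbp4 they were Cpe (r = 0.959), Cx3cl1 (0.959) and Unc80 (0.957). For Irs2 they were Pex2 and Rin2 (0.983 each) and Bbx (0.978), and for Igfbp3 Ddx4 (0.988), BB218582 (0.986) and Cyp11a1 (0.984). Irs1 was closest to Pde5a (0.967), Igfbp5 to Mpp2 (0.951), Insr to Etl4 (0.983), Igf2r to Got1l1 (0.982), Igf1r to Foxk2 (0.953) and Igfbp2 to Adgrl1 (0.932).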

How the data were processed

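RNA-seq of 8 lines in 2 states gave 48 libraries, 3 for each line and state. The authors deposited a table of raw read counts per Ensembl gene. Named in the submitters' processing notes, without roles, are featureCounts 1.6.4, STAR 2.7.3a, DESeq2 1.38.3, cutadapt 3.2 and the genome mm10. Neither the strand setting nor the treatment of multi-mapping reads is given in the sources used here. Of 54 columns 6 matched no sample label and were left out, and the samples of the Y728 line are not analysed here. Identifiers were matched to symbols in GENCODE M21 (55141 of 55401).

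Counts were scaled by TMM and tested with edgeR 4.0.16 (quasi-likelihood, robust, filterByExpr) in R 4.3.3, with 1 fit per state (24 libraries, 16 residual degrees of freedom, 15830 genes in mESC and 17030 in ATRA) and 1 over both states (32 degrees of freedom, 17683 genes) for the ATRA effects and their differences. P-values were adjusted by Benjamini-Hochberg over all genes tested, and a gene was called at an adjusted p under 0.05. The 4 Weaver variants were averaged with equal weight. In all 30 comparisons were tested, of which 2 were added after values were seen. Alternatives were RLE size factors, DESeq2 1.42.0, no filter on low counts, the replicate number as a block, a correction of counts for GC content, the last 2 together, and leaving out each library. The test scripts were tested on simulated data. Depth limits the low-count members Irs1 and Igfbp5 most.

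The 9 genes, the pathway and marker lists and the naming rule were chosen with earlier results of these data known. All members are named. From each list up to 3 genes per direction could be named, with the largest called change, at least 1 CPM in a compared group, and no overlap of libraries or, for the mean of variants, the same sign in each. Ezh2, Airn, Igf1, Igf2, Ins1 and Ins2 are given whatever they show. Promoters are RefSeq sequences (GRCm38.p6), found for 8 of the 9 members.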

Additional observations from a re-analysis of the deposited data

Results flagged for a closer look

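For 8 results the test of a difference between 2 responses to ATRA passed. The mean response of the 4 Weaver variants differed from that of WT by a log2 value of 0.453 for Irs2 (adjusted p = 0.0162), -0.422 for Igfbp3 (0.0118) and 1.982 for Igfbp4 (5.4e-11). For Irs2 and Igfbp3 the A677T response was near that of WT (1.495 against 1.594 and 2.382 against 2.453). The response of WT differed from that of the heterozygote by 1.625 for Igfbp4 (1.51e-06). The response of A733T differed from the mean response of the Weaver variants by -1.61 for Irs1 (0.00795), -0.477 for Irs2 (0.00396), 0.796 for Igfbp3 (2.8e-07) and -2.312 for Igfbp4 (4.41e-14). All p-values are from edgeR's quasi-likelihood test. The tests of WT against the heterozygote and of A733T against the Weaver variants were added after the values were seen. The Irs1 result rests on mESC libraries of the Weaver variants with 0 to 4 counts. The Irs2 call for the Weaver variants against WT ended under the GC correction. The first and the last set both use the libraries of the 4 Weaver variants, and the WT libraries enter both of the first 2 sets.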

How the results depend on the processing

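Of 4104 single-gene values under the alternatives, 3866 kept their side of the threshold, 117 lost a call, 116 gained one and 5 changed sign with a call. The sign changes were all of Igfbp2 against WT: A677T in mESC (0.219 with the GC correction, 0.215 with the block added), K634E in ATRA (0.217 and 0.215) and K634E in mESC (0.177 with both). The causes were not tested. GC-corrected levels lay within 1 SD of the reported level for 118 of 144 group means, and none moved over 1.5-fold.

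Counts of called members moved as follows. With the GC correction the count went from 3 to 5 for the Weaver mean in mESC, 1 to 2 for R679C in mESC, 3 to 5 for A733T in mESC, 0 to 1 for the heterozygote against parental in mESC, 2 to 6 for A677T in ATRA, 3 to 5 for K634E in ATRA, 1 to 2 for WT against the heterozygote in ATRA and 1 to 2 for the heterozygote against parental in ATRA. With the GC correction and the replicate block together these counts were 5, 2, 5, 3, 6, 5, 2 and 2, and the counts also went from 1 to 2 for K634E in mESC, 3 to 6 for R679C in ATRA, 4 to 8 for A733T in ATRA and 0 to 1 for the A733T response. Without the filter on low counts they were 2 for R679C and K634E in mESC, 2 for both comparisons of the heterozygote in ATRA, 1 for the A733T response and 2 for the WT against heterozygote response. RLE size factors left 1 for WT against the heterozygote in mESC.

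Leaving out 1 library gave 1 to 4 for the Weaver mean in mESC (1 without WT replicate 2), 1 to 2 for R679C (2 without R679C replicate 1), 2 to 4 for K563E (2 without K563E replicate 2 or WT replicate 1 or 2), 1 to 3 for WT against the heterozygote (1 without heterozygote replicate 2 or 3 or any WT library) and 0 to 1 for the heterozygote against parental (1 without parental replicate 2). In ATRA it gave 2 to 5 for the Weaver mean (2 without WT replicate 3), 1 to 3 for A677T, 1 to 2 for WT against the heterozygote (2 without WT replicate 2) and 0 to 1 for the heterozygote against parental (0 without parental replicate 1).

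The labels give same-numbered libraries no more than a number, and of 84 same-number pairs 16 in mESC and 28 in ATRA had a correlation of deviations over 0.1. The median was 0.033 and 0.056, against -0.02 and -0.031 for other numbers, and 15 and 20 of 24 libraries correlated best with their own number, a hint from the data that the numbers may mark something shared. With the replicate block alone the count of called members went from 2 to 4 for A677T in ATRA (adding Igfbp4 and Igfbp5), from 1 to 2 for WT against the heterozygote in ATRA and from 1 to 2 for the heterozygote against parental in ATRA.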
